A study of Mus musculus with 2 samples.

Results

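Fpr1 and Fpr2 encode the formyl peptide receptors of mouse phagocytes. They are 2 of 15605 genes listed in the deposited tables, with the Entrez gene identifiers 14293 and 14289. They were chosen by the measured ratio of their estimated counts between the 2 libraries of the study, so that ratio is a description here and carries no test. RNA came from peritoneal macrophages of C57BL/6 mice aged 6 to 8 weeks, kept with cells of the EO771 mouse mammary carcinoma line for 4 days. One library was from wild type mice and one from mice labelled lgmn-/-, which lack the lysosomal protease legumain. Both had the co-culture, and no library without tumour cells was analysed here. The labels give neither the allele nor the number of mice pooled. With 1 library per genotype no difference had a replicate check, no p-value was computed, and effects of genotype, animal and preparation cannot be told apart. In such bulk RNA, more cells expressing a receptor and more receptor RNA per cell cannot be told apart either.

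Formyl peptide receptors are G protein-coupled receptors that detect peptides beginning with formylmethionine, which bacteria and damaged mitochondria release. They couple to inhibitory G proteins, and in neutrophils and macrophages they drive chemotaxis, calcium release, degranulation and the oxidative burst. Mouse Fpr1 is a receptor for short formylated peptides. Fpr2 also responds to host ligands such as the glucocorticoid-regulated protein annexin A1, serum amyloid A and cathelicidin. Inflammatory stimuli such as endotoxin raise the RNA of both in macrophages, and Fpr2 is used as a marker of classical activation in mouse macrophages.

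The receptors lie side by side on chromosome 17 and are transcribed away from each other. In GRCm38, Fpr1 spans 17876471 to 17883939 on the minus strand and Fpr2 spans 17887824 to 17893952 on the plus strand, so their start sites are 3885 bases apart. Each GENCODE transcript has 2 exons, with the whole coding sequence in 1 of them, of 1092 bases in Fpr1 and 1053 in Fpr2. The 250 bases before each start site are shown because the neighbouring genes differed in the same direction between the libraries. They come from RefSeq, build GRCm38.p6, each written 5′ to 3′ on its gene's own strand, and capitals mark every match to a motif searched.
Fpr1, chr17:17883940-17884189, minus strand: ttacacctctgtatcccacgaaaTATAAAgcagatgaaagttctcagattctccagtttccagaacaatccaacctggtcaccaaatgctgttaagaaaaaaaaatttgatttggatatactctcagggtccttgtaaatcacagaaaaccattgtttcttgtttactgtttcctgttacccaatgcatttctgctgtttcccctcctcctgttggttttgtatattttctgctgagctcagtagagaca
Fpr2, chr17:17887574-17887823, plus strand: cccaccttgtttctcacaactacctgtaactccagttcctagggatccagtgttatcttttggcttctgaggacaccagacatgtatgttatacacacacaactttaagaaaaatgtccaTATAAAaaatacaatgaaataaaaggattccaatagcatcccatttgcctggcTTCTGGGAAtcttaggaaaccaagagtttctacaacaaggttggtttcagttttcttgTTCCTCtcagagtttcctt

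The windows do not overlap, and 38.4% and 38.8% of their bases are G or C. The 8 motifs were searched on both strands. They were GGAAGT for PU.1 and other ETS factors, the PU.1 core GAGGAA, with which it can overlap, TGANTCA for AP-1, TTCNNNGAA for STAT factors, TTGCNNAA for C/EBP, TATAAA, and the IRF and NF-kB consensus motifs. Fpr1 held only TATAAA, 227 to 222 bases before the start site. Fpr2 held TATAAA at 130 to 125 bases, TTCTGGGAA, a match to the STAT motif, at 77 to 69 bases, and GAGGAA on the opposite strand at 19 to 14 bases. Among 32851 RefSeq promoter windows of this length, 12.4% held TATAAA, 7.02% the STAT motif and 23.3% GAGGAA. The other 5 motifs had no match in either window, and were held by 19.7% (GGAAGT), 6.75% (AP-1), 9.56% (C/EBP), 2.98% (IRF) and 7.25% (NF-kB) of all windows. A match describes letters and is not a measured binding site.

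The genotype labels were checked on Lgmn itself, with 23550 estimated counts in wild type and 426 in knockout, 64.4-fold lower after scaling (95% interval 58.6 to 71.1). The libraries held 11885755 and 11740202 rounded counts in all. Macrophage markers were abundant in both, with the lysozyme gene Lyz2 at an FPKM (fragments scaled by transcript length and library depth) of 13192 and 12481. Folds are knockout over wild type counts after scaling with TMM factors. Their 95% exact Clopper-Pearson intervals cover counting error only, and fragments amplified by PCR are not independent molecules.

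Fpr1 RNA was scarce in the wild type library and moderate in the knockout library. It had 19 estimated counts in wild type (95% exact Poisson interval 11.4 to 29.7) and 169 in knockout (144 to 196), at FPKM values of 1.20 and 10.8. The scaled counts were 20.6 and 157, which is 7.63-fold higher in the knockout library (4.74 to 13). By FPKM the gene went from place 8995 among 14681 listed genes to place 4090 among 14756.

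Fpr2 was the more abundant receptor in both libraries and differed by a similar factor. It had 65 estimated counts in wild type (50.2 to 82.8) and 485 in knockout (443 to 530), at FPKM values of 4.22 and 31.9. The scaled counts were 70.4 and 451, 6.40-fold higher in the knockout library (4.93 to 8.43). It moved from place 5965 to place 1997 by FPKM. The count intervals of the 2 libraries did not overlap for either receptor, which follows from how they were chosen. The share of all genes for which this held is not given here, so it sets neither receptor apart. Summed over both genes there were 84 counts (67.0 to 104) and 654 (605 to 706), with summed FPKM values of 5.42 and 42.8, and the sum was 6.68-fold higher (5.32 to 8.49).

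**Figure D1:**
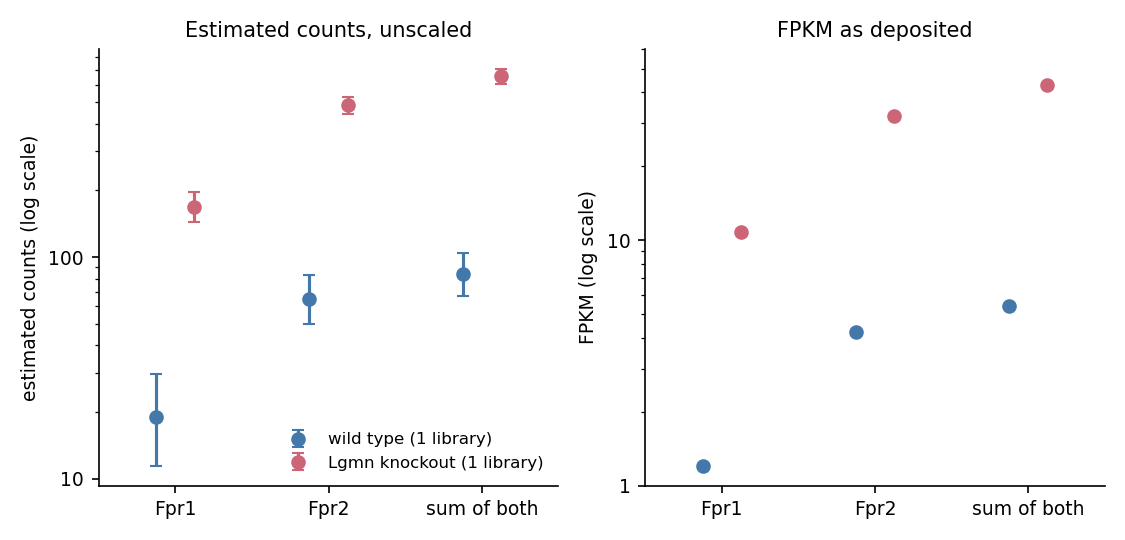
Estimated counts before scaling (left, with 95% exact Poisson intervals) and deposited FPKM (right) of Fpr1, Fpr2 and their sum, both on log scales, with 1 point per library. The knockout points, at 169, 485 and 654 counts, lie above the wild type points at 19, 65 and 84.

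The balance between the receptors was alike within counting error. Fpr1 made up 22.6% of the summed counts in wild type (19 of 84, exact 95% interval 14.2 to 33.0) and 25.8% in knockout (169 of 654, 22.5 to 29.4). Per unit of length, the FPKM of Fpr2 was 3.52 times that of Fpr1 in wild type and 2.95 times in knockout. On the log2 scale, with 1 scaled count added to both libraries, the ratios were 2.87 for Fpr1, 2.66 for Fpr2 and 2.73 for the sum. The Fpr1 value exceeded that of Fpr2 by 0.21, and by 0.07 when 5 counts were added.

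The ratios were large against the other genes measured. The test of size took in 9498 genes whose larger estimated count was 50 or more. Of these, 575 (6.05%) were higher in knockout by 2-fold or more, 165 (1.74%) were lower by as much, and 40 (0.421%) were higher by 4-fold or more. Both receptors are among those 40, at places 7 and 11 from the highest log2 ratio. That place follows from how they were chosen. Fpr2 reached 50 counts in both libraries. Fpr1 reached them in the knockout library alone, like 715 of the genes tested, and with 19 wild type counts it could enter only when higher in knockout by 2.20-fold or more, 1 scaled count added. Of those 715 genes, 244 were at least 2-fold higher. With a minimum of 200 counts Fpr1 was not tested.

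Transcript length moved with the log2 ratio across genes, and both receptors lay far above that trend. Both were chosen by this ratio, so their distance from the trend and their places below follow from that choice. At 1332 and 1296 bases, the lengths given in the tables, they fall in the second of 10 groups of tested genes by length, in which the median log2 ratio was -0.28 against 0.00 over all genes. In that group, 14 of 948 genes (1.48%) were at least 2-fold higher, and Fpr1 and Fpr2 held places 2 and 3. Subtracting a lowess trend on length took Fpr1 from 2.87 to 3.13 and Fpr2 from 2.66 to 2.92, at places 4 and 5 of all genes. With the trend removed, 203 genes (2.14%) were higher by 2-fold or more and 180 (1.9%) lower. The higher genes were then 53.0% of the calls, against 77.7% without the adjustment, 90.6% with scaling by library totals and 90.2% with deposited FPKM.

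**Figure D2:**
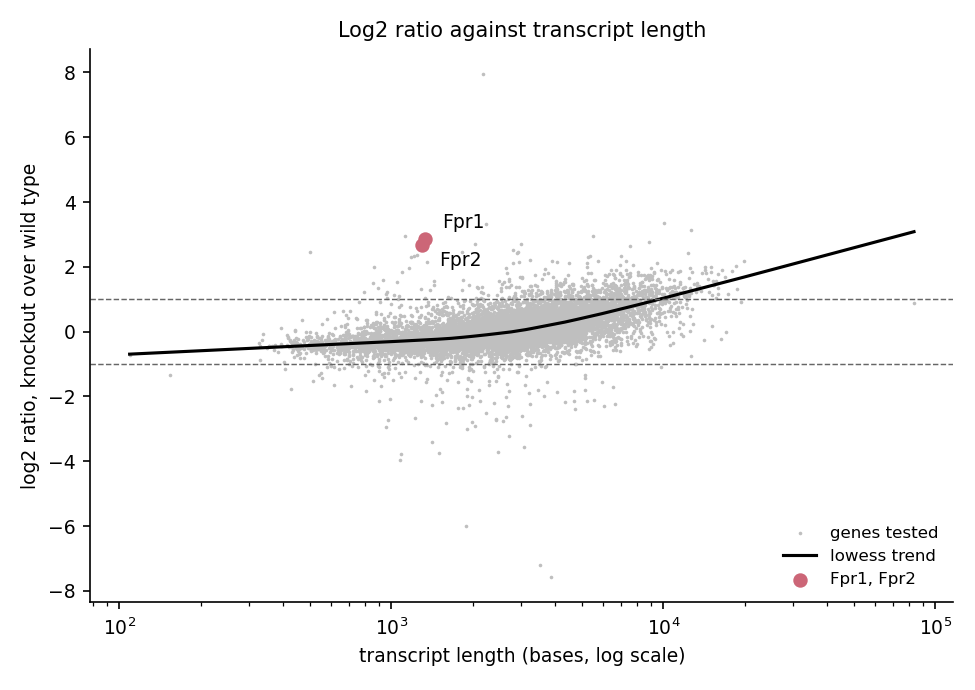
Log2 ratio of knockout over wild type against transcript length (log scale), with 1 point per tested gene, a lowess trend as a black line and dashed lines at 2-fold. Fpr1 and Fpr2, at 1332 and 1296 bases, lie at 2.87 and 2.66, where the trend is below 0.

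Of 8 genes of the family named in RefSeq, Fpr1 and Fpr2 were the 2 listed in either table. Fpr3, Fpr-rs3, Fpr-rs4, Fpr-rs6, Fpr-rs7 and the pseudogene Fpr-rs5, several of them expressed in sensory neurons of the vomeronasal organ, were listed in neither. The aligned parts of the Fpr1 and Fpr2 transcripts were 75.0% identical, and the longest run they shared was 50 bases. Of the 1275 distinct stretches of 50 bases in Fpr1, 1 (0.0784%) occurred in a transcript of another gene, Fpr2. For Fpr2 this was 403 of 1084 (37.2%), with 368 found in the neighbouring pseudogene Gm5966 and 77 in Fpr3, which was 88.5% identical to Fpr2. Gm5966 was listed in neither table. Fragments from those stretches could be assigned to Fpr2 whichever copy made them, and how many were is not measured here. All 4 estimated counts of the receptors were whole numbers as deposited, without the fractions that dividing shared fragments leaves. That cannot show whether Fpr2 received fragments of another copy, because fragments given wholly to 1 gene leave no fraction either.

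Data on neighbouring genes were thin. Within 0.5 Mb of either start site RefSeq has 26 other genes, of which 3 were listed and 1 had enough counts to be tested. Lnpep, which encodes an insulin-regulated aminopeptidase, had 136 and 296 counts, 1.87-fold higher (1.52 to 2.30), or 0.90 on the log2 scale and 0.46 with the length trend removed. Lix1 had 4 and 13 counts. Spaca6, which encodes a sperm membrane protein, was listed in the knockout library alone, with 4 counts.

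Genes for the ligands of the receptors showed no difference of 2-fold. Of 19 genes for ligands and the enzymes that make or remove them, 9 were tested, 0 passed 2-fold in either direction, and the median log2 ratio was -0.30. With 6.05% of all tested genes past 2-fold upward and 1.74% downward, a count of 0 in so few genes is near the background. The log2 ratio was above 0 for 1 of the 9, and for 4743 of all 9498. With library totals that median was -0.06. Anxa1, which encodes annexin A1, had 13308 and 9525 counts, 1.63-fold lower (1.59 to 1.67), or -0.70 on the log2 scale and -0.46 with the length trend removed. Saa3, the serum amyloid A that macrophages make, had 6233 and 5892 counts, or -0.30 on the log2 scale and 0.12 with the trend removed. Alox5ap, which presents arachidonic acid to 5-lipoxygenase, and Plaur, the urokinase receptor whose fragments act on formyl peptide receptors, had log2 ratios of -0.57 and -0.42. Camp, which encodes cathelicidin, had 1 and 5 counts, and Ctsg, for the neutrophil protease cathepsin G, had 4 and 1.

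Most genes that carry the signal from the receptors differed by less than 2-fold. Of 35 tested, 3 passed 2-fold upward and 0 downward, near the 6.05% and 1.74% of all genes, and the median was 0.10. With the length trend removed the counts were 1 and 1, and with library totals 7 passed upward. With a minimum of 200 counts 1 of 29 tested passed upward and 0 downward, and the median was -0.07. Gnai2, the inhibitory G protein subunit most used by these receptors in leukocytes, had 5834 and 6457 counts and a log2 ratio of -0.07. The other 3 most abundant by FPKM were Gng5, a G protein gamma subunit, at -0.32, Cdc42, a small GTPase of the cytoskeleton, at -0.41, and Mapk3, the kinase ERK1, at -0.55. Trpm2, a calcium-permeable channel of phagocytes, had 23 and 125 counts, 4.66-fold higher (2.97 to 7.62), or 2.18 on the log2 scale and 1.44 with the trend removed. Itpr3, a calcium release channel, and Pik3cd, a leukocyte phosphoinositide 3-kinase, had 1.21 and 1.06, but 0.28 and 0.66 after adjustment, so neither passed 2-fold then.

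Among 16 tested genes that switch such receptors off, 2 passed 2-fold upward and 1 downward, against 6.05% and 1.74% of all genes, and the median was 0.01. With the length trend removed the counts were 1 and 0. Rgs1, which speeds the shut-off of inhibitory G proteins, had 10568 and 6098 counts, 2.02-fold lower (1.96 to 2.09). Its log2 ratio of -1.01 was -0.76 after adjustment and -0.78 with library totals, short of 2-fold. Grk4, a receptor kinase, had 64 and 198 counts, 2.65-fold higher (1.99 to 3.58), and 1.31 on the log2 scale after adjustment. Arrb1, which encodes beta-arrestin 1, had 343 and 848 counts, and its log2 ratio of 1.08 was 0.37 after adjustment. Arrb2, Rgs10 and Gpsm3, the most abundant of the list after Rgs1, had log2 ratios of -0.15, -0.49 and 0.07.

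The phagocyte NADPH oxidase, the enzyme of the oxidative burst that these receptors trigger, had 0 of 7 genes past 2-fold in either direction, near the 6.05% and 1.74% of all genes, and a median of 0.20. Cybb, its catalytic subunit, had 7852 and 18231 counts, 1.99-fold higher (1.94 to 2.05), or 0.99 on the log2 scale and 0.63 with the length trend removed. With library totals Cybb was at 1.23, past 2-fold. Its partner Cyba had 13546 and 14920 counts and a log2 ratio of -0.08. Ncf4, a cytosolic subunit, had 2693 and 2806 counts and a log2 ratio of -0.16.

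Other chemoattractant receptors are set beside the pair for their levels, since the pair was chosen for its difference. Of 14 tested, 2 passed 2-fold upward and 2 downward, against 6.05% and 1.74% of all genes, and the median of -0.05 was 0.19 with library totals. With a minimum of 200 counts 1 of 11 tested passed upward and 1 downward. The receptors at the top were C3ar1, the receptor of complement C3a, with FPKM values of 327 and 333, Ccr1 with 187 and 183, and Ccrl2 with 183 and 134. Among 24 listed receptors, Fpr1 and Fpr2 included, Fpr2 stood at place 12 by FPKM in wild type and place 7 in knockout, and Fpr1 at 16 and 9. In the knockout library the FPKM of Fpr2, 31.9, lay below that of the C5a receptor gene C5ar1, 39.2, and of Ptafr, the platelet-activating factor receptor, 38.9, and above that of Cxcr4, 19.7.

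The receptor genes past 2-fold were Ccr2 and Cmklr1 on the higher side. Ccr2, which guides monocytes, had 28 and 102 counts, 3.13-fold higher (2.04 to 4.93). Cmklr1, the chemerin receptor, had 132 and 351, 2.28-fold higher (1.86 to 2.81). Both stayed past 2-fold after length adjustment, at 1.46 and 1.18 on the log2 scale. Cxcr4, the receptor of Cxcl12, had 786 and 424 counts, 2.16-fold lower (1.92 to 2.44), and Gpr183, an oxysterol receptor, 157 and 90, 2.03-fold lower (1.56 to 2.67). With library totals their log2 ratios of -1.11 and -1.02 were -0.87 and -0.78, short of 2-fold.

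**Figure D3:**
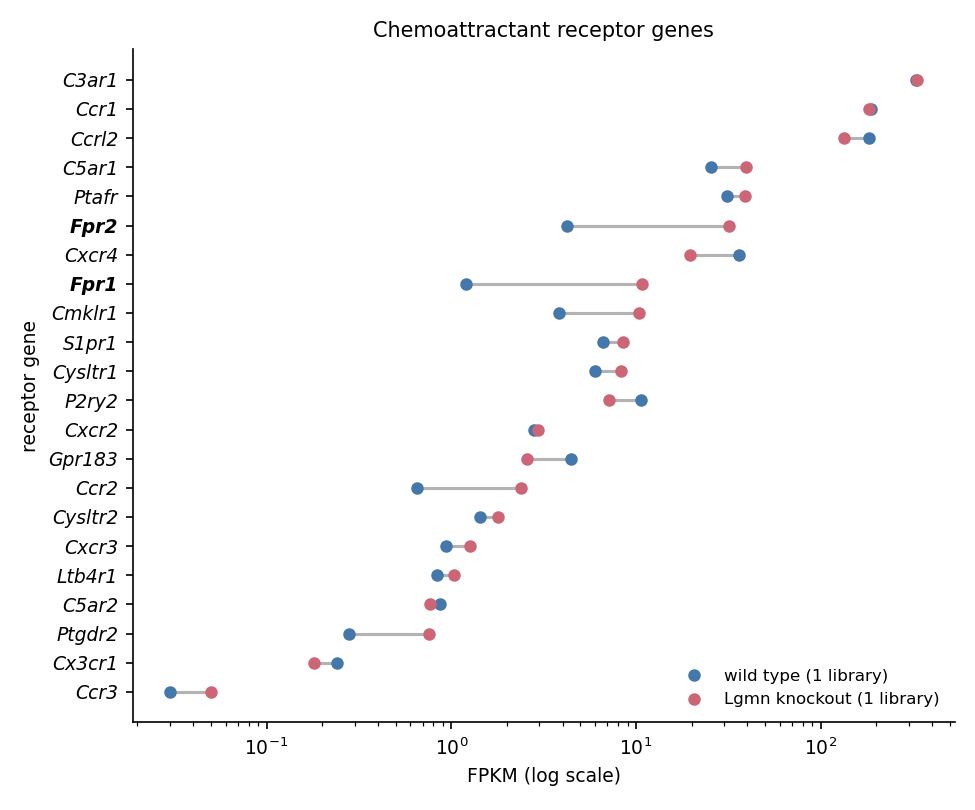
FPKM (log scale) in the wild type and knockout libraries of chemoattractant receptor genes listed in both, ordered by the knockout value. The gap between the libraries is widest for Fpr1, from 1.20 to 10.8, and Fpr2, from 4.22 to 31.9, the pair chosen for its difference.

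Genes used with Fpr2 to mark classical activation in mouse macrophages are Cd38, an ectoenzyme that consumes NAD, and Gpr18, a lipid-responsive receptor. Cd38 had 99 and 279 counts, 2.42-fold higher in the knockout library (1.92 to 3.07), or 1.27 on the log2 scale and 1.22 with the length trend removed. Gpr18 had 11 and 30 counts, too few to be tested. Of the markers of alternative activation in the same scheme, Egr2, a zinc finger transcription factor, had 333 and 260 counts, 1.49-fold lower (1.27 to 1.76). Myc had 48 and 33 counts and was not tested.

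Among genes that endotoxin induces in macrophages, 7 of 25 tested passed 2-fold upward and 2 downward, against 6.05% and 1.74% of all genes, and the median was 0.35. With the length trend removed the counts were 8 and 1. With a minimum of 200 counts 6 of 21 tested passed upward and 2 downward. Cxcl10, a chemokine for activated T cells, had 44 and 405 counts, 7.90-fold higher (5.78 to 11.0). Il1b, the cytokine interleukin 1 beta, had 77 and 404, 4.50-fold higher (3.52 to 5.82). Acod1, which makes itaconate, had 1172 and 3972, 2.91-fold higher (2.72 to 3.11). Il1rn, the antagonist of the interleukin 1 receptor, went the other way, with 7246 and 3216 counts, 2.63-fold lower (2.52 to 2.74). Of 20 myeloid and inflammatory transcription regulators, 1 passed 2-fold upward and 0 downward, near the share of all genes, and the median was 0.29. That gene was Irf1, induced by interferon, with 1799 and 5397 counts, 2.57-fold higher (2.44 to 2.72). Spi1, which encodes PU.1, had 2732 and 3115 counts and a log2 ratio of -0.03.

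**Figure D4:**
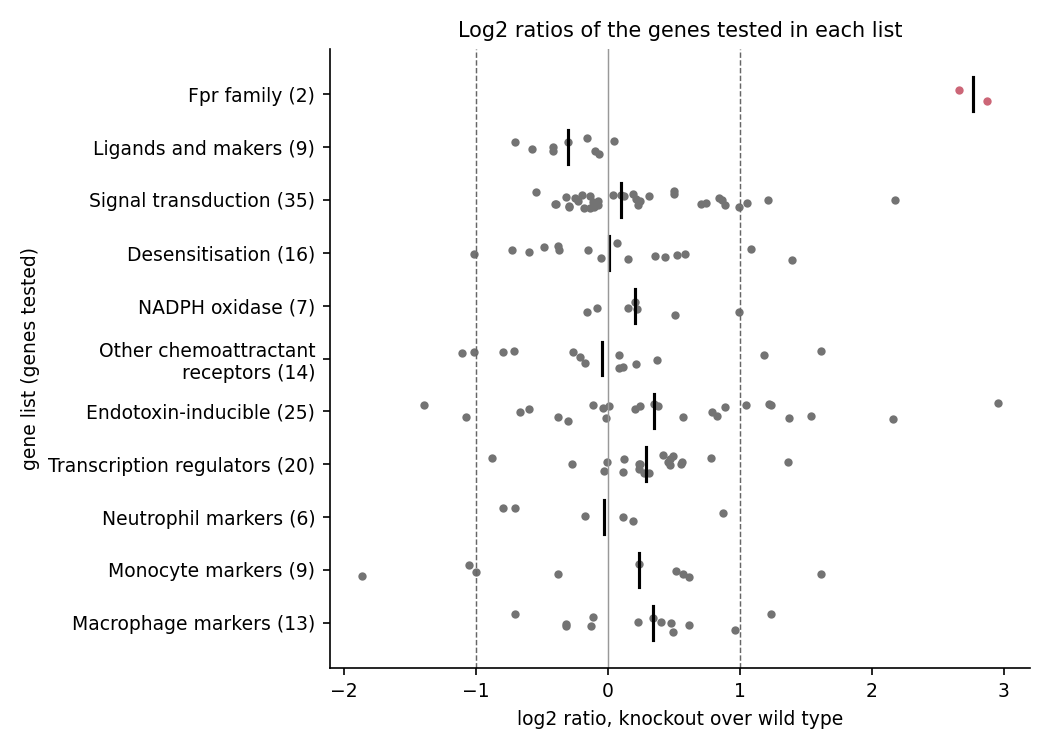
Log2 ratio of knockout over wild type of each tested gene in the lists (number tested in brackets), with a bar at each list's median and dashed lines at 2-fold. Fpr1 and Fpr2, chosen by this ratio, lie at 2.87 and 2.66, while the medians of the other lists drawn lie between -0.30 and 0.35. Lists not drawn are the activation markers and the markers of large peritoneal macrophages, dendritic cells, T and NK cells, fibroblasts and epithelial carcinoma cells. The median of the large peritoneal macrophage markers was 0.45.

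The genes whose levels were most like those of the receptors were found by the distance of log2 FPKM, after adding 0.1, over the 2 libraries. Nearest to Fpr1 were Serpina3g, at a distance of 0.15 and with 32 and 251 counts, and Serpina3f, at 0.44 and with 23 and 276. Both encode serine protease inhibitors and belong to a family of similar copies among which shared reads are divided. Both also lie on chromosome 12, as does Lgmn. Serpina3g spans from base 104236147, Serpina3f from 104214544 and Lgmn from 102394082. Whether the place of Serpina3g and Serpina3f near Lgmn bears on their counts was not tested. Cxcl13, a B cell chemokine, Dync1h1, the dynein heavy chain, and Helz2, a helicase, followed at distances of 0.74, 0.79 and 0.79. After length adjustment the log2 ratio of Dync1h1 was 0.44 and that of Helz2 0.82, while that of Cxcl13 was 2.24. Nearest to Fpr2 were Xcl1, a chemokine of lymphocytes, at 0.32, Cxcl10 at 0.34, Il1b at 0.37, Gbp4, a guanylate-binding protein, at 0.44, and Iigp1, an interferon-inducible GTPase, at 0.71. With 2 libraries, a short distance says only that 2 pairs of values are close. By log2 ratio alone, Fpr1 stood between Cxcl10 (2.96) and the histone methyltransferase gene Setd1b (2.75, and 1.83 after adjustment). Fpr2 stood between Iigp1 (2.70) and Crebbp, a histone acetyltransferase gene (2.64, and 1.88 after adjustment).

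Neutrophils and monocytes express both receptors, so their markers are given beside these values. Of 16 neutrophil markers 6 were tested, 0 passed 2-fold, near the share of all genes, and the median was -0.03. With library totals 1 passed upward and the median was 0.21. The summed counts of the list were 4178 in wild type and 3453 in knockout, of which Mmp8, a collagenase, made up 3350 and 2251. Several markers of the list had few counts. Ly6g had 6 and 12 counts, Elane 2 and 1, and Retnlg 1 and 1, while S100a9 and Mpo were listed in the knockout library alone with 1 count each. Csf3r, the receptor of granulocyte colony-stimulating factor, had 241 and 515 counts and a log2 ratio of 0.87. S100a8 had 361 and 456 counts, and Cxcr2, also on the list, had 103 and 106.

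Of 14 genes marking monocytes or small peritoneal macrophages, 9 were tested, 1 passed 2-fold upward and 2 downward, against 6.05% and 1.74% of all genes, and the median was 0.23. With a minimum of 200 counts that median was -0.07. Their summed counts were 1882 and 1858. Ccr2 was the higher one, and Ly6c2, a surface protein of inflammatory monocytes, had 188 and 258 counts, 1.18-fold higher (0.972 to 1.43). Chil3 was 3.71-fold lower (2.68 to 5.20), and Retnla had 51 and 28 counts. The log2 ratio of Retnla, -1.06, was short of 2-fold with library totals and FPKM (-0.83 in both), with 5 counts added (-0.96) and with the length trend removed (-0.66). Of 13 macrophage markers, 1 passed 2-fold upward and 0 downward, near the share of all genes, and the median was 0.34. It was Mertk, a receptor for dying cells, with 253 and 694 counts.

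Markers of other cells also differed. Of 8 T and NK cell markers tested, 3 passed 2-fold upward and 0 downward, against 6.05% and 1.74% of all genes, with summed counts of 2073 and 3942 over the list. Those 3 reached 50 counts in the knockout library alone, so they could enter only when higher there. With 5 counts added 2 passed upward, and with a minimum of 200 counts 0 of 3 tested did. Of 9 fibroblast markers, 0 passed upward and 8 downward, against the same shares, with summed counts of 3586 and 932. Of 2 dendritic cell markers tested, 1 passed upward and 1 downward, against 6.05% and 1.74% of all genes. Clec9a was higher, with 13 and 74 counts, and Fscn1 lower, with 132 and 49. Each reached 50 counts in 1 library alone, and with a minimum of 200 counts 0 of this list were tested. Of 5 large peritoneal macrophage markers tested, Cxcl13 and F5 passed upward and 0 downward, against 6.05% and 1.74% of all genes. Cxcl13, with 19 and 89 counts, and F5, with 20 and 66, reached 50 counts in the knockout library alone. F5 was at 0.70 on the log2 scale with the length trend removed, short of 2-fold. With a minimum of 200 counts 1 marker of this list was tested and 0 passed. Of 10 epithelial carcinoma markers, with 93 and 34 counts in all, Krt19 was the 1 tested, at 67 and 4 counts, while Epcam had 1 and 2 and Krt8 had 5 and 2. The part of these cells in the Fpr1 and Fpr2 values was not tested.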

How the data were processed

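Per the labels, RNA of peritoneal macrophages was read on a BGISEQ-500 instrument. The deposited tables hold the authors' estimated counts and FPKM in the RSEM layout, by Entrez identifier. HISAT2, Bowtie2, RSEM and mm10 are named, without roles or versions, in the submitters' processing notes. The sources used here do not say whether counting used strand. Samples were grouped by genotype label, 1 library each. The deposited FPKM values go down to 0.01, and a gene absent from a table was given 0 counts.

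Estimated counts were rounded and scaled with TMM factors (0.921 wild type, 1.09 knockout) from edgeR 4.0.16 in R 4.3.3. Log2 ratios had 1 scaled count added to each library, and folds none. A gene entered the 2-fold test of size when its larger estimated count was 50 or more. The lowess span was 0.3. Symbols came from RefSeq GRCm38.p6, the assembly of mm10, which matched 15561 identifiers, and transcripts from GENCODE vM21.

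The members, the gene lists and the tests were chosen with earlier results of these data known. Named genes are the 2 receptors, Lgmn, up to 4 members past 2-fold of each list, the 4 most abundant members of the receptor's own pathway lists, neighbours within 0.5 Mb, the 5 nearest FPKM patterns and the next genes by log2 ratio. Some were left unnamed for space, and a few are not reported here. Other low-count genes, marker genes and Spi1 were named after their values were seen.

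On simulated counts drawn from these libraries, 100 of 100 raised and 100 of 100 lowered genes, changed 3-fold or 4-fold, passed 2-fold among 9308 tested, and 1 of 9108 unchanged genes did. Both simulated libraries came from 1 mean profile with counting error only, without variation between animals or preparations and without a length trend. Only genes with a mean of 100 counts or more were changed. The result checks the calculation and does not show how reliable calls from 1 library per genotype are. Alternatives used DESeq2 1.42.0 size factors, library totals, median centring, deposited FPKM, other pseudocounts, minimums and thresholds, unrounded counts and length adjustment. Calculations used Python 3.11.15, scipy 1.17.1, statsmodels 0.14.6 and Biopython 1.88.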

Additional observations from a re-analysis of the deposited data

How the results depend on the processing

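Over 8 alternatives the log2 ratio of Fpr1 lay between 2.66 and 3.13, that of Fpr2 between 2.60 and 2.92, and that of their sum between 2.67 and 2.98, all inside the counting intervals of the main values. Library totals and deposited FPKM moved the median of all genes by 0.24 and 0.23, and relative to that median Fpr1 was at 2.87 and 2.84 and Fpr2 at 2.66 and 2.66. The number of genes at least 2-fold higher was 1036 with library totals, 936 with FPKM, 203 with the length trend removed, 921 with a minimum of 10 counts, 273 with 200 and 1458 with none, against 575. It was 1562 at a 1.5-fold and 40 at a 4-fold threshold. The number at least 2-fold lower, 165, was 107 with library totals, 102 with FPKM, 436, 67 and 1531 with those minimums, and 607 and 45 at those thresholds. The cause of the changes with scaling was not tested.

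For 62 other named genes, alternatives added after seeing the data gave 496 values, of which 401 lay inside the counting interval, 95 moved outside it and 0 reversed a gene past 2-fold. Of 41 genes past 2-fold, 11 fell short under at least 1 alternative, among them Rgs1, Cxcr4, Gpr183, Arrb1, Itpr3 and Pik3cd. No paired analysis was possible because each genotype had 1 library, and for the same reason leaving out a library was not possible. With 19 wild type counts, Fpr1 had a wider counting interval of its fold (4.74 to 13) than Fpr2 (4.93 to 8.43).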
